A study of Mus musculus with 7 samples.

Results

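The proteasome genes were read as RNA levels in single MII oocytes of the mouse, mature eggs that wait at metaphase of meiosis II for fertilization. Members were all genes whose symbol begins with Psma, Psmb, Psmc, Psmd, Psme, Psmf or Psmg followed by a digit, which took 52 of the 37620 genes in the table. In the comparison, 3 oocytes were Hiraf/f (WT1, WT2 and WT4, called WT) and 4 were Hiraf/f with Zp3-Cre (KO1 to KO4, called KO), so both genotypes carried the floxed Hira alleles. The WT numbering skips WT3, and no oocyte of that name is among the samples. All sample titles, those of WT included, carry the tag Zp3-Cre. With the genotypes as given above, the presence of Cre cannot be told apart from the deletion of Hira. Hira encodes a chaperone of the histone variant H3.3, and the Zp3 promoter drives Cre in growing oocytes, so the deletion is made in the oocyte while the rest of the animal keeps the gene. Each library was 1 oocyte, and the labels give no animal, strain or age, so a genotype counts as 1 sample, no test was made, and SDs are the spread between oocytes.

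The proteasome is the protease that degrades proteins tagged with ubiquitin. Its barrel-shaped 20S core is built of alpha rings, which gate the pore, and beta rings, which hold the proteolytic sites. The 19S regulatory particle caps the core with a base, whose ATPases unfold and thread the substrate, and a lid, which removes the ubiquitin. Mature oocytes hardly transcribe and live on stored mRNA, and the exit from the MII arrest requires the proteasome to destroy cyclin B and securin.

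Levels are the authors' FPKM, fragments per kilobase of gene scaled to the reads of the library. The steps of the FPKM values gave back 15340782 to 25940519 reads in genes per oocyte. Hira had 42, 55 and 35 reads in WT1, WT2 and WT4 and 12, 15, 5 and 17 reads in KO1 to KO4, and its mean FPKM was 4.04-fold lower in KO. All 10 oocyte markers were present, with summed FPKM of 13461 to 14932 in WT and 8521 to 10959 in KO oocytes. Of 15 cumulus and granulosa markers, 11 had a mean FPKM under 1, Amh, Foxl2, Tnfaip6 and Amhr2 were at 0 in every library, and Fshr, Cyp19a1, Nr5a2 and Kitl had a mean of 1 or more, up to 23.5. This list summed to 26.7 to 28.7 in WT and 37.1 to 42.0 in KO. All 7 white blood cell markers had a mean under 1, with Cd74, Tyrobp, Lyz2 and Cd3e at 0 in every library and sums of 0 to 0.357 in WT and 0 to 0.710 in KO. The oocyte and the cumulus and granulosa sums thus differed between the genotypes without overlap, and their part in the results below was not tested.

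Of the 52 members, 48 had a value in at least 1 oocyte and 41 had FPKM of at least 1 in at least 3 oocytes, the filter that 8033 genes passed. The difference between genotypes is the mean of log2(FPKM + 1) in KO minus that in WT, a scale that understates the change of low genes. On it 1 of the 41 members, the lid subunit Psmd3, was over 1.5-fold higher in KO and 2, the core subunits Psma5 and Psmb1, were over 1.5-fold lower, against 22.6% and 7.92% of all genes past the filter. In either direction this makes 3 of 41 members, or 7.32%, against 30.5% of all genes. All KO oocytes were above all WT oocytes for 4 members (Psmd6, Psmd7, Psmd14 and Psmc3ip; 18.9% of all genes) and below every WT oocyte for 5 (Psma1, Psma2, Psma5, Psmb6 and Psmc6; 8.94% of all genes). Of these, Psmc3ip passed the filter only through its KO oocytes, as every WT value was under 1. The median difference was -0.04 over the 41 members and 0.18 over all genes. Single oocytes moved these counts: 4 members were over 1.5-fold higher without WT1 or without WT4 and 2 without KO3 or KO4, 1 was over 1.5-fold lower without WT4 or KO4 (Psmb1), and 7 were above without overlap without WT1, WT4 or KO1. Leaving out an oocyte can only keep or raise a count without overlap, and no share of all genes stands beside the counts from these leave-outs. The members' median was 0.00, 0.04 and 0.01 without WT1, WT4 and KO3. Thus 38 of the 41 members lay within 1.5-fold. Those without overlap made up 9.76% of members on the higher side and 12.2% on the lower side, against 18.9% and 8.94% of all genes. They were lid genes and Psmc3ip on the higher side, and core genes and the ATPase Psmc6 on the lower side.

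The scaling of the libraries sets the zero of this comparison. With median-ratio size factors, which bring the median of all genes to -0.01, the members' median was -0.26, none was over 1.5-fold higher (14.8% of all genes) and 6 were over 1.5-fold lower (Psma1, Psma5, Psmb1, Psmb6, Psmc6 and Psmd10; 14% of all genes, and 28.9% in either direction). With quantile normalization, which brings the median of all genes to 0.00, the members' median was -0.17, none was over 1.5-fold higher (14.4% of all genes) and 4 were over 1.5-fold lower (Psma5, Psmb1, Psmb6 and Psmd10; 12.7% of all genes, and 27% in either direction). Under either scaling no member had every KO oocyte above every WT oocyte (12.5% and 12.4% of all genes) and 7 had every KO oocyte below every WT oocyte (14.9% and 13.7% of all genes). Psma1, Psma5, Psmb6 and Psmc6 were below without overlap under all 3 scalings, and Psma4 and Psmb1 under both of these but not as deposited. The higher calls of Psmd6, Psmd7 and Psmd14 thus held only for FPKM as deposited, where the median of all genes was also above 0.

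**Figure D1:**
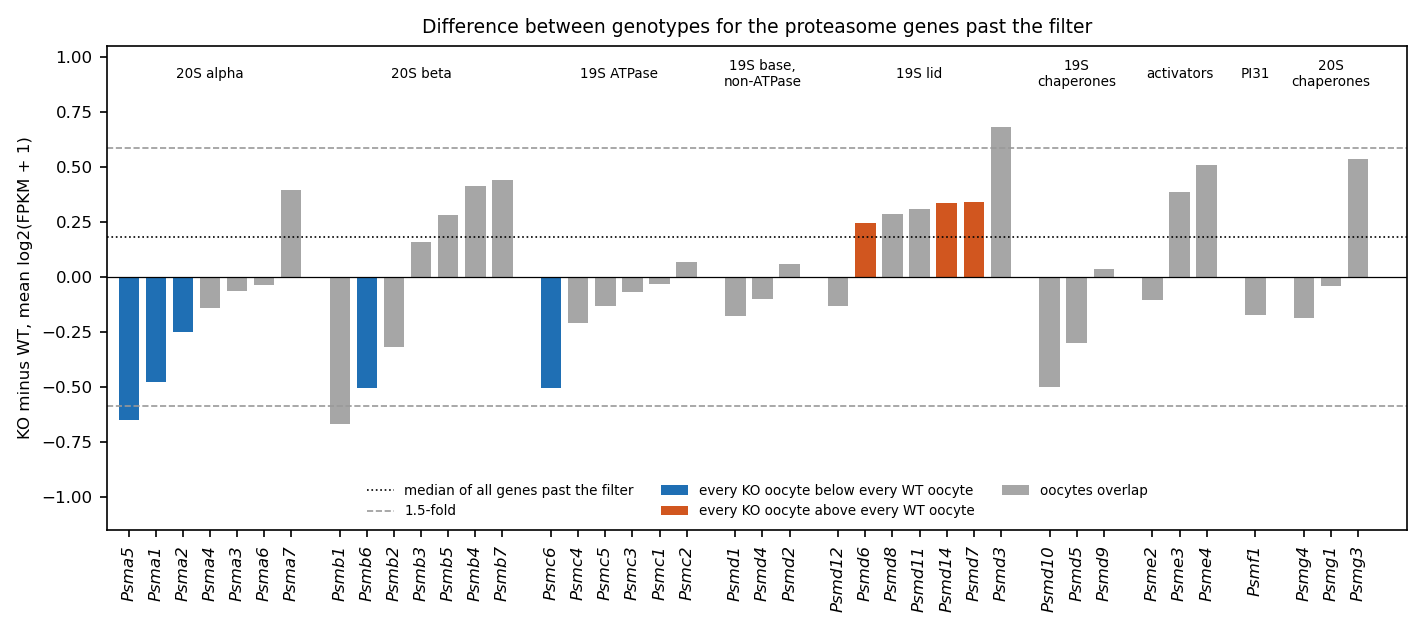
Bars give the log2 difference, KO minus WT, of the members past the filter other than Psmc3ip, grouped by role, with the 1.5-fold limits dashed and the all-gene median of 0.18 dotted. Orange bars mark genes with every KO oocyte above every WT oocyte and blue bars the reverse, and 6 of 7 lid bars lie above 0 where 6 of 7 alpha and 5 of 6 ATPase bars lie below it.

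The upstream sequence of the subunit genes without overlap is shown for both the higher and the lower side. RefSeq promoter windows (GRCm38.p6) matched 41 of the 52 members. The last 120 bases before the start are printed for each such subunit with a window, 5′ to 3′ on the gene's strand, with capitals where TGANNNNGC, CCAAT or GGAAG occurs on either strand.
Psma1 (chr7:114276117-114276236, minus strand): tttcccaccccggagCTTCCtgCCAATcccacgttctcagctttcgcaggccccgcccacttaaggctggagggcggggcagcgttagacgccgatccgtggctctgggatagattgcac
Psma2 (chr13:14613122-14613241, plus strand): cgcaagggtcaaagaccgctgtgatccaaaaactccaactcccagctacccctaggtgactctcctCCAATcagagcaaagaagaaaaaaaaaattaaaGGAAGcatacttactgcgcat
Psma5 (chr3:108256806-108256925, plus strand): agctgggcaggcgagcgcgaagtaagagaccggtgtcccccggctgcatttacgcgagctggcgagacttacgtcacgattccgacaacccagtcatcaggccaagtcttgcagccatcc
Psmb6 (chr11:70525237-70525356, plus strand): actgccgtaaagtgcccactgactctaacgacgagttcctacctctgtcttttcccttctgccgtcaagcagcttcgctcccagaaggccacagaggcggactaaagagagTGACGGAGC
Psmc6 (chr14:45329704-45329823, plus strand): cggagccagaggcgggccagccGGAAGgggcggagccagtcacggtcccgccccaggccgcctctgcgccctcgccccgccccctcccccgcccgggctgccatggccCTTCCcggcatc
Psmd6 (chr14:14120946-14121065, minus strand): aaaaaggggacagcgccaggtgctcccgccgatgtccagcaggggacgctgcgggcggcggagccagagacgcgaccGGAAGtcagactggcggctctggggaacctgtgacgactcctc
Psmd14 (chr2:61711574-61711693, plus strand): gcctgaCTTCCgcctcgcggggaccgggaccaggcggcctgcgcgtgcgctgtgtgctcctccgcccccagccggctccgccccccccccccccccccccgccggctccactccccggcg
TGANNNNGC is the core of the antioxidant response element, CCAAT is the box bound by NF-Y, and GGAAG is an ETS-type core that was not among the motifs first planned. A match to one may overlap another. In the 250 bases before the start, TGANNNNGC was found in 9 of 25 constitutive subunits with a window, or 36.0%, against 42.2% of 5949 genes past the filter. CCAAT was found in 10 of 25, or 40.0%, against 42.0%. GGAAG was found in 24 of 25, or 96.0%, against 72.5%, and both the genes lower in KO (5 of 5) and the subunits higher in KO with a window (Psmd6 and Psmd14) held it. TGANNNNGC was in Psmb6 and Psmc6 and CCAAT in Psma1, Psma2 and Psmd14, so neither was in all of the lower or all of the higher genes. These are matches of letters only.

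The 31 constitutive subunits spanned a wide range of mean FPKM, from 191 for Psma2 to 0.111 for the lid subunit Psmd13, although the particle holds them in fixed proportions. Among the 30 that passed the filter the highest and lowest means were 149.6-fold apart. Means were above 50 for 6 subunits and under 5 for 9. The order of the 31 levels was much the same in every oocyte, with Spearman rho of 0.972 to 0.990 between WT oocytes, 0.963 to 0.987 between KO oocytes and 0.955 to 0.987 between a WT and a KO oocyte. These correlations describe genes of shared libraries and gene lengths. The lengths implied by the FPKM steps were 0.265 (Psmb1) to 2.83 (Psmd4) times the exon length of a later annotation for subunits past the filter, so levels of different genes rest on lengths that could not be checked.

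**Figure D2:**
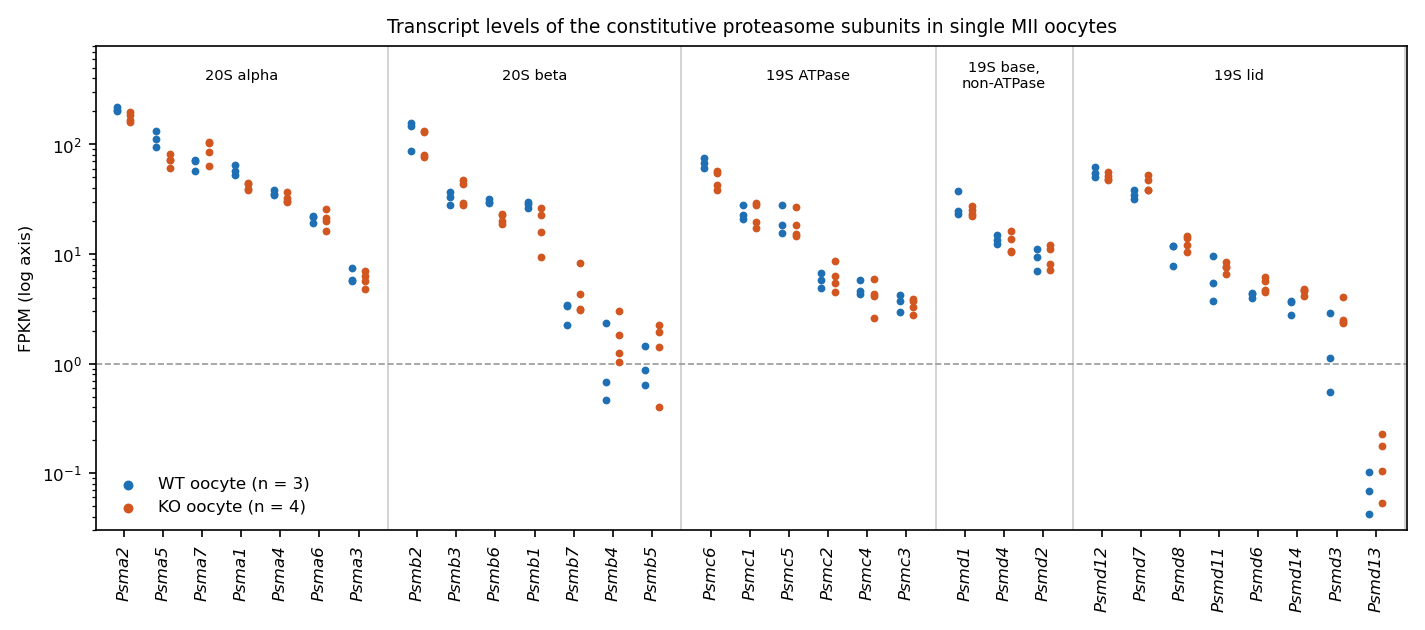
FPKM of each constitutive subunit in each oocyte on a log axis, WT in blue and KO in orange, with subunits ordered by mean within each role and a dashed line at FPKM 1. Mean levels run from 191 (Psma2) to 0.111 (Psmd13), and the spread between oocytes is small beside the spread between subunits.

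All 7 alpha subunits passed the filter, and 6 had a negative difference (median -0.14), where 2907 of all 8033 genes past the filter had one. Psma5 was at 113, 95.3 and 133 FPKM in WT1, WT2 and WT4 and at 71.5, 82.6, 72.2 and 60.9 in KO1 to KO4. Every KO oocyte lay below every WT oocyte, and the mean was 114 ± 18.9 (SD, n = 3) in WT and 71.8 ± 8.90 (SD, n = 4) in KO, a log2 difference of -0.65. Of the exon sequence of Psma5, 50% of 50-base stretches also occur in other genes, so its reads could have been divided with near copies.

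Psma1 was at 53.0, 56.7 and 64.7 FPKM in the WT oocytes and at 39.6, 44.1, 43.7 and 38.2 in the KO oocytes. Here too the genotypes did not overlap, with a log2 difference of -0.48, and no exon sequence is shared with another gene. Psma2, the most abundant member, was at 219, 208 and 204 FPKM in WT and at 162, 185, 196 and 167 in KO. The step was small, at -0.25 on the log2 scale, and the genotypes overlapped after quantile normalization, where it was -0.12. Psma3, the lowest alpha subunit, was at 5.74, 7.42 and 5.64 FPKM in WT and at 6.33, 7.004, 4.84 and 5.67 in KO, with full overlap. Psma4 and Psma6 differed by -0.14 and -0.04, and the oocytes of Psma4 overlapped only in FPKM as deposited.

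Psma7 was the alpha subunit with a positive difference. It was at 70.2, 57.4 and 72.6 FPKM in WT and at 63.3, 85.8, 103 and 105 in KO. KO1 lay within the WT range and the other 3 KO oocytes above it, for a log2 difference of 0.39.

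All 7 beta subunits passed, with differences from -0.67 to 0.44 and a median of 0.16. Psmb6, which carries the caspase-like site, was at 29.9, 31.9 and 29.3 FPKM in WT and at 18.8, 20.2, 23.3 and 22.5 in KO. Every KO oocyte lay below every WT oocyte under all 3 scalings, with means of 30.4 ± 1.38 (SD, n = 3) and 21.2 ± 2.08 (SD, n = 4) and a log2 difference of -0.50. Psmb1, a structural subunit without a proteolytic site, was at 30.04, 28.5 and 26.3 FPKM in WT and at 9.34, 26.3, 22.8 and 16.0 in KO. KO2 reached the lowest WT oocyte, so the genotypes touched in FPKM as deposited and did not overlap under the other 2 scalings, and the log2 difference of -0.67 shrank to -0.39 without KO1. Psmb2 was at 147, 86.7 and 157 FPKM in WT and at 76.3, 132, 130 and 79.7 in KO. Its levels in WT2, KO1 and KO4 lay close together and well below those of the other 4 oocytes, so the spread within each genotype was wider than the log2 difference of -0.32.

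Of the other sites, the trypsin-like one is on Psmb7 and the chymotrypsin-like one on Psmb5, and both genes were low. Psmb7 was at 3.42, 3.34 and 2.24 FPKM in WT and at 3.13, 8.20, 3.07 and 4.36 in KO. Psmb5 was at 0.866, 0.642 and 1.45 FPKM in WT and at 2.24, 1.94, 1.41 and 0.398 in KO, which makes it the lowest core subunit. The genotypes overlapped for both, and the differences of 0.44 and 0.28 lay within the spread between oocytes. The low level of Psmb5 rests on 14 to 63 reads per oocyte and on a gene of which 54.1% of exon stretches are shared. Psmb4, a structural subunit, was at 0.464 to 2.35 FPKM in WT and 1.03 to 3.03 in KO, and Psmb3 at 27.8 to 36.6 in WT and 28.2 to 47.3 in KO, with overlap in both.

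All 6 ATPases of the base passed, and 5 had a negative difference (median -0.10), though those of Psmc1, Psmc3 and Psmc5 were positive without WT4. Psmc6 was at 67.7, 76.0 and 61.6 FPKM in WT and at 42.9, 54.8, 57.5 and 38.8 in KO. It was the highest of the ATPases and the only one without overlap, with means of 68.4 ± 7.25 (SD, n = 3) and 48.5 ± 9.08 (SD, n = 4) and a log2 difference of -0.50. Psmc4 was at 4.63, 4.36 and 5.80 FPKM in WT and at 2.61, 4.28, 4.16 and 5.91 in KO. Its genotypes overlapped, and KO4 was the highest of all 7. Psmc3, the lowest of the ATPases, was at 2.97, 3.72 and 4.24 FPKM in WT and at 2.78, 3.89, 3.75 and 3.28 in KO. Psmc1, Psmc2 and Psmc5 differed by -0.03, 0.07 and -0.13, also with overlap.

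The 3 other base subunits passed with overlap. Psmd1, a scaffold, was at 24.6, 23.1 and 37.5 FPKM in WT and at 23.1, 22.3, 25.1 and 27.3 in KO. WT4 stood above the other 6, and the difference was -0.18. Psmd4, a ubiquitin receptor, was at 12.4, 13.3 and 15.0 FPKM in WT and at 10.7, 10.5, 16.1 and 13.6 in KO. Psmd2, the other scaffold, was at 11.2, 6.97 and 9.36 FPKM in WT and at 12.03, 11.2, 7.12 and 8.18 in KO, a difference of 0.06.

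Of the 8 lid subunits 7 passed, 6 with a positive difference (median 0.31), and 6 and 5 were positive with median-ratio and quantile scaling. Over all genes past the filter 5126 of 8033 had a positive difference. Psmd14, the deubiquitinase of the lid, was at 3.76, 2.79 and 3.68 FPKM in WT and at 4.72, 4.14, 4.58 and 4.77 in KO. Psmd7, its partner in the active dimer, was at 38.1, 34.2 and 31.6 FPKM in WT and at 38.2, 47.9, 38.5 and 53.0 in KO. Psmd6 was at 4.28, 3.98 and 4.45 FPKM in WT and at 4.51, 4.66, 5.64 and 6.13 in KO. In all 3 genes the KO oocytes lay above the WT oocytes, by the narrowest of margins for Psmd7 (KO1 over WT1) and Psmd6 (KO1 over WT4). The log2 differences were 0.34 for both Psmd14 and Psmd7 and 0.24 for Psmd6. They were 0.15, 0.10 and 0.04 with median-ratio factors and 0.08, 0.25 and -0.0038 with quantile normalization, so that the sign of Psmd6 turned under the last.

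Psmd3 was at 2.92, 0.555 and 1.12 FPKM in WT and at 2.33, 4.06, 2.39 and 2.51 in KO. WT1 lay above 3 of the 4 KO oocytes, so the largest positive difference among members, 0.68, came with overlap. It was 0.38 without WT2 and 0.54 without KO2, both within 1.5-fold, and 1.0499 without WT1. Psmd8 and Psmd11 differed by 0.29 and 0.31 with overlap. Without WT2 these were 0.10 and 0.04, and Psmd11 differed by 0.62 without WT4. Psmd12, the most abundant lid subunit, was at 50.8, 61.7 and 55.0 FPKM in WT and at 46.9, 51.9, 55.6 and 48.8 in KO, a difference of -0.13. Psmd13 did not pass the filter, at 0.042 to 0.103 FPKM in WT and 0.054 to 0.228 in KO on 5 to 46 reads per oocyte. Of its exon sequence 10.1% overlaps another gene.

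The assembly chaperones of the 19S base had differences of -0.50 (Psmd10), -0.30 (Psmd5) and 0.03 (Psmd9). Psmd10 was at 13.9, 15.7 and 16.5 FPKM in WT and at 16.7, 11.3, 8.09 and 8.07 in KO. KO1 was the highest of all 7 oocytes and the other 3 KO oocytes were below every WT oocyte. Psmd5 was at 10.3, 2.42 and 5.59 FPKM in WT and at 4.34, 6.43, 3.24 and 3.21 in KO, and the WT oocytes alone spanned 4.26-fold. Its difference was 0.12 without WT1 and -0.74 without WT2.

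Among the chaperones that build the core, Psmg3 and Psmg4 form one pair and Psmg1 and Psmg2 the other. Psmg3 was at 7.37, 5.41 and 11.1 FPKM in WT and at 18.8, 8.16, 12.4 and 9.18 in KO, a log2 difference of 0.53 with overlap. Psmg4 was at 3.44, 2.52 and 1.56 FPKM in WT and at 2.30, 2.38, 1.55 and 1.88 in KO. The members of the other pair were far apart in level in every oocyte, with Psmg1 at 7.41 to 16.4 FPKM and Psmg2 at 0 to 0.865. Psmg1 averaged 10.8 in WT and 10.5 in KO. Psmf1, the inhibitor PI31, was at 1.38, 1.34 and 2.66 FPKM in WT and at 1.56, 1.81, 1.03 and 1.37 in KO, a difference of -0.17 with overlap.

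The activators bind the core in place of the 19S particle. Psme4 (PA200), which is linked to the degradation of acetylated histones, was at 52.3, 37.6 and 34.7 FPKM in WT and at 51.5, 57.9, 58.2 and 67.4 in KO. KO1 fell just below WT1, which was the one crossing, and the log2 difference was 0.51. Psme3, the nuclear activator PA28 gamma, was at 19.7, 9.56 and 10.9 FPKM in WT and at 19.9, 20.5, 15.0 and 13.6 in KO. In this gene, too, WT1 stood among the KO oocytes, and the difference was 0.39. Without WT1, the WT oocyte that reached into the KO range, the differences of Psme4 and Psme3 were 0.68 and 0.68. Both were then over 1.5-fold and without overlap, which leaving out that oocyte favours. Over all single leave-outs they ranged from 0.39 to 0.68 for Psme4 and from 0.20 to 0.68 for Psme3. With median-ratio factors they were 0.27 and 0.16, and with quantile normalization 0.45 and 0.22. Of the interferon-inducible pair PA28 alpha and beta, Psme2 was at 1.18 to 2.84 FPKM, while Psme1 was at 0 in 5 oocytes and had 1 read in WT4 and 5 in KO4.

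The alternative subunits were at or near 0. Psmb8, the immunoproteasome counterpart of Psmb5, had 0 reads in all 7 oocytes, which allows up to 3 reads in each at 95% confidence for counting error. Psmb10, the counterpart of Psmb7, was given 1 read in WT1 and 1 in KO4, the smallest count that fits. This count implies a length of 0.146 times the exon length of a later annotation, so the true counts may be larger. Psmb11, the thymus-specific subunit, had 3 and 4 reads in WT1 and WT4 and 5 in KO2. None of these levels allows a comparison of genotypes. In each of the 7 oocytes the constitutive gene exceeded its counterpart, at 0.398 to 2.24 FPKM for Psmb5 and 2.24 to 8.20 for Psmb7. Psmb9 was not analysed here.

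Psma8, the germ cell counterpart of Psma7 known from the spermatoproteasome, was at 0.684, 0.580 and 0.550 FPKM in WT, on 32, 32 and 23 reads. It was at 0 in KO1, KO2 and KO4 and at 0.334 in KO3, on 24 reads. Every KO oocyte was below every WT oocyte, but the gene did not pass the filter and 1 KO oocyte held all KO reads. Psma7 exceeded it in every oocyte.

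The rule also took 4 symbols that are not subunits. Psmc3ip (HOP2), a factor of meiotic recombination named for binding an ATPase, was at 0.822, 0.997 and 0.325 FPKM in WT and at 1.60, 1.85, 1.19 and 1.47 in KO. The genotypes did not overlap, and the log2 difference was 0.57. Every WT value was under 1 and every KO value above it, so the gene passed the filter only through KO. Its place among the members higher in KO therefore rests in part on the filter. Of its exon sequence 21.2% overlaps another gene. The pseudogenes Psmb5-ps and Psmb6-ps were at 0 throughout, as was the Psme2 copy Psme2b. Psmb7-ps2 had a value in WT4 only, where its count was set to 1 read.

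Summed by role, the alpha and ATPase transcripts were lower in every KO oocyte under all 3 scalings, while the FPKM sums of the lid overlapped and their direction changed with the scaling. The alpha subunits summed to 518, 485 and 534 FPKM in WT1, WT2 and WT4 and to 392, 467, 473 and 423 in KO1 to KO4. Every KO sum was below every WT sum, at 512 ± 24.7 (SD, n = 3) and 439 ± 38.4 (SD, n = 4), a ratio of 0.857 that was 0.724 with median-ratio factors and 0.882 with quantile normalization. The ATPase sums were 127 ± 7.04 in WT and 105 ± 14.7 in KO. Psmc6 alone held 68.4 of the WT mean and 48.5 of the KO mean. Each of the 5 other ATPases overlapped between genotypes, and the sum without Psmc6 was not taken. The lower ATPase sum is therefore not shown for the role as a whole. As a percentage of all FPKM in the library the alpha and ATPase sums both overlapped, at 0.185% to 0.199% in WT and 0.156% to 0.190% in KO for the alpha subunits. The lid summed to 116 ± 1.39 in WT and 128 ± 9.98 in KO with overlap, and the KO to WT ratio of 1.10 became 0.929 with median-ratio factors and 1.03 with quantile normalization. As a percentage of all FPKM the lid was higher in every KO oocyte, at 0.0436% to 0.0440% in WT and 0.0454% to 0.0556% in KO. The beta sums overlapped, at 227 ± 41.2 and 189 ± 50.3, as did the sums of the 3 other base subunits. All 52 members together summed to 1154 ± 88.1 in WT and 1047 ± 98.8 in KO, also with overlap. With median-ratio factors the sums of the 3 other base subunits and of all members were lower in every KO oocyte, at 0.777 and 0.767 of WT.

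A ratio of sums within an oocyte does not depend on a library factor. The ratio of the lid sum to the alpha sum was 0.227, 0.237 and 0.220 in WT and 0.290, 0.289, 0.274 and 0.319 in KO. It was 1.29-fold higher in KO without overlap, a quantity chosen after the values had been seen. The ratio stayed without overlap when Psma2, Psma5, Psmd7 or Psmd12 was left out (1.27, 1.20, 1.20 and 1.498-fold) and with quantile normalization (1.16-fold). The ratio of the lid sum to the ATPase sum was 0.917 ± 0.058 in WT and 1.24 ± 0.201 in KO, again without overlap. It shares the lid sum with the first ratio, and Psmc6 has a large part in its ATPase sum. No subunit was left out of this ratio, so its dependence on Psmc6 is not known. The ratio of the lid sum to the beta sum overlapped, at 0.458 to 0.640 in WT and 0.563 to 0.880 in KO, as did that of the ATPase sum to the alpha sum (0.249 ± 0.019 and 0.238 ± 0.021). The coefficient of variation over the 31 constitutive subunits, a measure of how uneven their levels are, was 1.36 to 1.43 in WT and 1.28 to 1.34 in KO. Over this pooled list the levels were thus somewhat more even in KO, without overlap. By role only the lid was so, at 1.29 to 1.54 in WT and 1.23 to 1.26 in KO. The coefficient overlapped for the alpha, beta, ATPase and other base roles. It also overlapped for the 20S core (1.14 to 1.17 in WT and 1.07 to 1.16 in KO) and the 19S particle. No such value for all genes stands beside it, and the part of level in it was not tested.

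**Figure D3:**
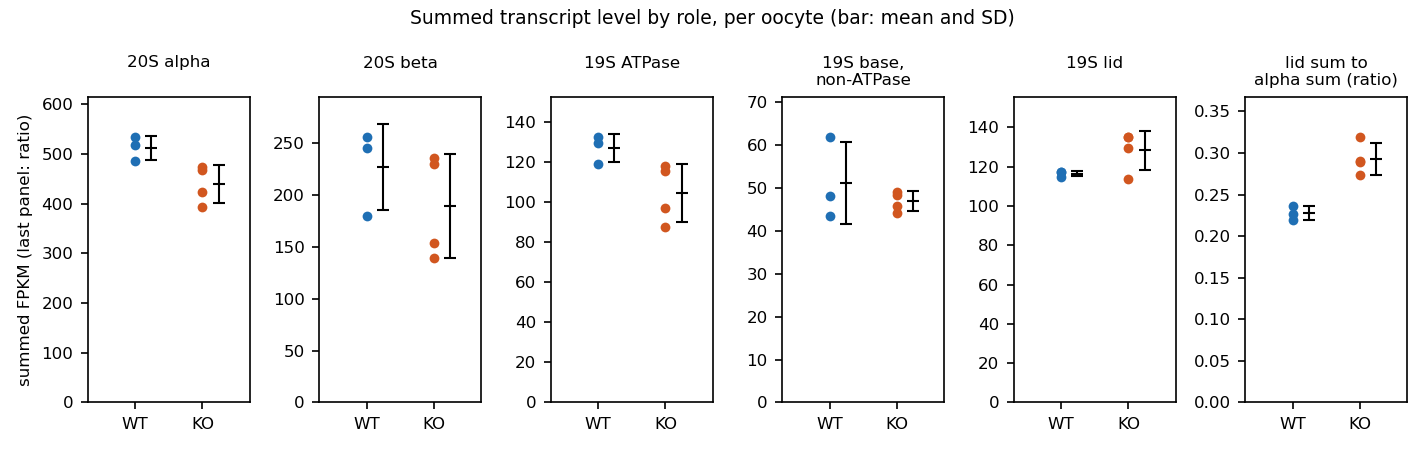
Summed FPKM of the constitutive subunits by role in each oocyte, with the mean and SD beside the points, and in the last panel the ratio of the lid sum to the alpha sum. The alpha and ATPase sums are lower in every KO oocyte, the beta, other base and lid sums overlap, and the ratio is 0.220 to 0.237 in WT and 0.274 to 0.319 in KO.

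Part of this pattern moved with level, and over all genes as well. Among all genes past the filter the median difference was 0.25 for a mean FPKM under 3, 0.23 from 3 to 10, 0.14 from 10 to 30, 0.04 from 30 to 100 and -0.13 from 100 up. The members' medians in these ranges were 0.28 (7 members), 0.06 (10), -0.04 (13), -0.13 (9) and -0.28 (2). They thus followed the same order, and from 3 FPKM up they were 0.15 to 0.18 below those of all genes. Psma5, Psma1 and Psmc6, at mean FPKM of 89.7, 48.6 and 57.0, lay in a range where the genes with every KO oocyte below every WT oocyte made up 16.2%. Psmd7, at 40.2 and a difference of 0.34, lay in the same range on the other side of its median of 0.04. The part of level in the differences by role was not tested.

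**Figure D4:**
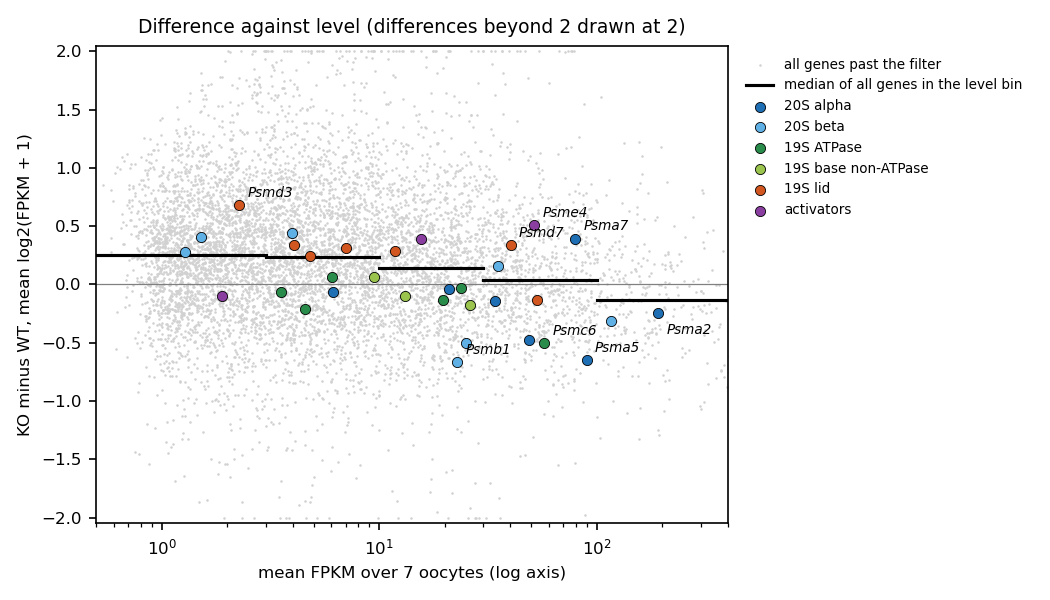
Difference between genotypes against mean FPKM over the 7 oocytes on a log axis, with all genes past the filter in grey, their median in 5 level ranges as black lines and the members of 6 roles in colour. The lines run from 0.25 below an FPKM of 3 to -0.13 from 100 up, with Psmd7, Psma7 and Psme4 above them and Psma5, Psma1, Psmc6 and Psmb1 below.

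Of 30 genes that assemble, serve or feed the proteasome, 29 were found and 25 passed the filter. Of these, 7 exceeded 1.5-fold on the higher side in KO and 1, Nfe2l2, on the lower side (22.6% and 7.92% of all genes), with a median difference of 0.22 beside 0.18 for all genes. With median-ratio factors the counts were 3 and 3 (14.8% and 14% of all genes) and the median 0.08. With quantile normalization they were 4 and 2 (14.4% and 12.7% of all genes) and the median 0.10. Ecpas, Rad23b and Nfe2l1 were within 1.5-fold under both, while Ngly1 exceeded it on the lower side under both. Sem1 exceeded it on the lower side with median-ratio factors only (-0.73). The genotypes did not overlap for 4 higher and 2 lower genes (18.9% and 8.94% of all genes). Ube3c, a ubiquitin ligase that works on stalled proteasomes, was at 6.52, 4.68 and 2.94 FPKM in WT and at 13.8, 12.6, 13.1 and 11.0 in KO. Ubqln2, a shuttle for ubiquitinated proteins, was at 14.5, 8.80 and 9.27 FPKM in WT and at 30.3, 21.2, 21.6 and 19.2 in KO. Zfand5, an activator of the 26S particle, was at 34.4, 16.1 and 15.0 FPKM in WT and at 42.3, 40.1, 34.7 and 41.3 in KO. These 3 genes were higher in every KO oocyte as deposited, with log2 differences of 1.30, 1.03 and 0.92 that were 0.69 to 1.10 under the other scalings. For Zfand5 the separation was narrow, between WT1 and KO3. It was lost with median-ratio factors (1.02 for WT1, 1.21 for KO2 and 1.04 for KO3), where WT1 lay above KO2 and KO3. Ubqln1, Ecpas and Rad23b were also over 1.5-fold higher (0.76, 0.67 and 0.61), and in each of them WT1 alone reached into the KO range.

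Ubb, a gene for ubiquitin itself, overlapped between genotypes at 174 ± 68.4 (SD, n = 3) in WT and 168 ± 51.5 (SD, n = 4) in KO. Nfe2l1 (NRF1), the transcription factor that induces proteasome genes when the proteasome is inhibited, was at 1.34, 0.769 and 1.26 FPKM in WT and at 2.37, 2.74, 1.65 and 2.68 in KO. It was higher in every KO oocyte (0.66), by 0.51 and 0.41 with median-ratio and quantile scaling, which is within 1.5-fold. Its relative Nfe2l2 (NRF2), at 5.66, 9.36 and 8.36 FPKM in WT and 1.76, 4.33, 3.20 and 2.96 in KO, was lower in every KO oocyte (-1.13). So was Ngly1, the glycanase needed to activate NRF1, which was at 12.6, 9.08 and 8.08 FPKM in WT and at 6.59, 7.08, 6.25 and 5.61 in KO (-0.55). Genes tied directly to the particle are the core chaperone Pomp, the base receptor Adrm1, the lid peptide Sem1 and the deubiquitinases Uchl5 and Usp14. In FPKM as deposited they overlapped between genotypes, with differences of 0.01, -0.15, -0.49, -0.13 and 0.07. With median-ratio factors Sem1 differed by -0.73, over 1.5-fold lower.

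**Figure D5:**
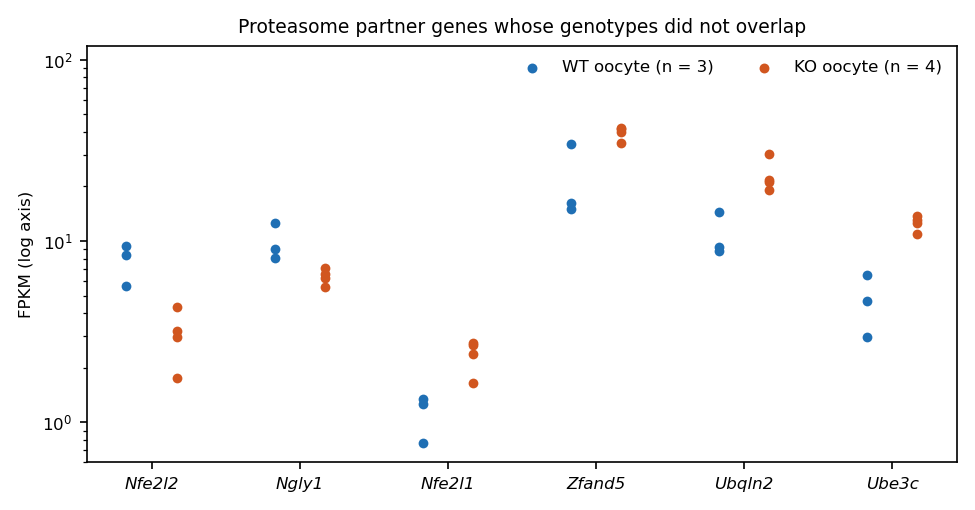
FPKM per oocyte on a log axis for the 6 proteasome partner genes past the filter whose genotypes did not overlap, WT in blue and KO in orange. Nfe2l2 and Ngly1 are lower in every KO oocyte, and Nfe2l1, Zfand5, Ubqln2 and Ube3c are higher.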

How the data were processed

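RNA of 7 single MII oocytes was amplified and sequenced, per the labels' protocols. The authors deposited linear FPKM for each Ensembl gene in each oocyte. Of the tools, the submitters' processing notes name edgeR 3.1.10, HTSeq, Bowtie 0.12.8 with Bowtie2, and TopHat2 2.0.2, on mm9. The gene lengths and the step each tool served are not given in the sources used here. FPKM are relative to the other RNA of a library, and spike-in values were not analysed here, so a lower level cannot be told apart from more of other RNA.

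Symbols came from the GENCODE vM21 annotation and named 87.4% of identifiers and 97.4% of the 8033 genes past the filter. They also gave exon overlap and the share of 50-base exon stretches that recur in other genes. Reads were recovered from the FPKM steps as the smallest whole numbers within a tolerance of 0.01. A factor shared by every library for a gene would go unseen, and limits on them cover counting error only (3 reads for a count of 0, at 95%). The 2437 genes with a value in only 1 library were set to 1 read. The recovery was also run on simulated data with library factors taken from these data, and the result of that run is not given here.

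The filter was FPKM of at least 1 in at least 3 oocytes, the pseudocount 1 and the fold limit 1.5. Alternatives were other pseudocounts and filters, median-ratio and quantile scaling, and leaving out each oocyte. The members, lists and limits were chosen with earlier results of these data known. Values in all oocytes are given for members over 1.5-fold apart or without overlap, the 2 members of each role with the largest absolute difference, the highest and lowest core and 19S members of each role, and the catalytic pairs. The same holds for partners over 1.5-fold apart without overlap. One gene of the partner list is not reported here, and the counts leave it out. Psma7, Psma8, Psmb4, Psmc3ip, Psmd13, Psme1, Psme2, Psmg1, Psmg2 and the partners that overlapped were named beside these to account for their roles. Python 3.11.15, numpy 2.4.6, pandas 2.3.3 and scipy 1.17.1 were used.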

Additional observations from a re-analysis of the deposited data

Results flagged for a closer look

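In 2 of the 41 members past the filter, 1 KO oocyte stood far from the other 3, since its gap to the nearest of them, divided by the range of the 4, was above the 95% limit for such gaps. Chance flags about 1 in 20 such groups. The lid subunit Psmd3 was at 4.06 FPKM in KO2 against 2.33 to 2.51 in the other KO oocytes, a gap of 0.900 of the range. The core assembly chaperone Psmg1 was at 16.4 FPKM in KO1 against 8.33 to 8.83 in the others, a gap of 0.938. Groups of 3 were not tested in this way.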

How the results depend on the processing

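The number of members over 1.5-fold higher in KO (1) was 4 with a pseudocount of 0.1 (Psmb4, Psmc3ip, Psmd3 and Psmg3) and 0 with a pseudocount of 5, with a filter of 10 FPKM and with either other scaling, and ranged from 1 to 4 when single oocytes were left out, with Psmd3 not among them without WT2 or KO2. The number lower (2) was 1 with a pseudocount of 5, 6 with median-ratio scaling and 4 with quantile normalization, and ranged from 1 to 3, with Psma5 not among them without WT4 or KO4 and Psmb1 not without KO1. The number above without overlap (4) was 1 with a filter of 10 FPKM (Psmd7) and 0 with either scaling, and ranged from 4 to 7. The number below (5) ranged from 5 to 7. Neither range could fall under its main count, since leaving out an oocyte can only keep or add genes without overlap. The median difference (-0.04) was -0.26 with median-ratio scaling and ranged from -0.059 to 0.04, with 0.0035, 0.038 and 0.0081 without WT1, WT4 and KO3. Set against the median of all genes it was -0.22 and ranged from -0.23 to -0.14 when single oocytes were left out. It was -0.087 with no filter, -0.13 and -0.28 with pseudocounts of 5 and 0.1, and -0.26 with median-ratio scaling. The ratio of summed FPKM (0.908) was 0.767 with median-ratio scaling and ranged from 0.870 to 0.939. The ratio of lid to alpha sums (1.29) was 1.16 with quantile normalization and 1.498 without Psmd12, and ranged from 1.25 to 1.32 over oocytes. Among single members the sign of Psmd6, which was without overlap as deposited, turned with quantile normalization (-0.0038). The signs of Psmc2, Psmd2 and Psmd9 turned with either scaling and that of Psmb3 with median-ratio scaling. Psmc2, Psmd2, Psmd9 and Psmb3 overlapped between genotypes as deposited. Leaving out 1 oocyte turned the sign of 14 of the 40 members other than Psmc3ip (Psma3, Psma6, Psmc1, Psmc2, Psmc3, Psmc5, Psmd1, Psmd2, Psmd5, Psmd9, Psme2, Psmf1, Psmg1 and Psmg4). No paired analysis was possible because the oocyte numbers name no shared animal or day and no test was made. Depth limits Psma8, Psmb8, Psmb10, Psmb11, Psmd13, Psme1 and Psmg2, which rest on under 50 reads per oocyte.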
